A study of Sus scrofa with 9 samples.

Results

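The interferon-induced genes GBP1, GBP2, STAT2, IRF1, MX1, MX2, OAS1, ISG15 and RSAD2 were examined in the back muscle of obese and lean minipigs. A probe was counted to one of these genes when the RefSeq accession on the array, without its version, belonged to the gene's symbol in the pig RefSeq table. This found 21 probes of 8 of the 9 genes among 43603 probes and 3196 named genes on the array. No probe was assigned to OAS1 in this way, and OAS1 was not analysed here.

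The animals were Bama minipigs, a small Chinese breed, of both sexes and gonadally intact. They were 6 months old at the start and were fed for 23 months, on a restricted ration. The control animals (CD) received ordinary pig chow. Animals on the high-fat high-sucrose diet (HFHSD) received a feed of 53% basal diet, 37% sucrose and 10% lard. Longissimus dorsi, the long muscle of the back, was taken after an overnight fast, and its total RNA was put on 1 single-colour Agilent array per animal, with 6 HFHSD and 3 CD arrays. The growth protocol gives 6 CD animals where the series design gives 3, and 3 CD arrays are analysed here. The sex of each animal is not given in the labels.

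Interferons are secreted proteins with which cells announce viruses and other intruders. Type I interferons signal through a factor complex that contains STAT2, and interferon-gamma switches on IRF1. Both routes end in a large set of induced genes, of which the guanylate-binding proteins respond strongly to interferon-gamma and the MX, OAS, ISG15 and RSAD2 genes mainly to type I interferons. In muscle these genes are known from viral infection and from inflammatory myopathies.

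None of the interferon-induced genes passed the test between the diets, which was a limma fit over 27922 probes with Benjamini-Hochberg adjustment and a threshold of 0.05. Of their 20 tested probes 0 were called, against 344 of all tested probes (1.23%). At an unadjusted p under 0.05 there were 5 of 20, against 4599 of all tested probes (16.5%). All 5 had the higher mean under HFHSD, and they lay in GBP1, GBP2 and STAT2. The diets were fully separated on 3 of the 20 probes, which were both GBP2 probes and 1 GBP1 probe, against 10.9% of all tested probes. All 3 lay higher under HFHSD, as did 4.8% of all tested probes. Each of the 5 probes, which include these 3, was well above background on only 1 or 2 of the 3 CD arrays, and so passed the filter of at least 3 arrays only with the HFHSD arrays, where it read higher. The filter favours that direction, and the counts are no result about these genes. With probes well above background on all 9 arrays none of the 5 was tested, and of the 9 probes of these genes that were, 1 had the higher and 8 the lower mean under HFHSD. The median HFHSD minus CD difference was -0.07 (log2) over the 20 probes and -0.02 over all tested probes. By the brightest probe of each gene, 3 of 8 genes had the higher mean under HFHSD and 5 the lower, with a median of -0.08 that equalled the median over 2613 named genes to 2 decimals. Of those named genes 26 were called (0.995%), none of them one of the 8.

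**Figure D1:**
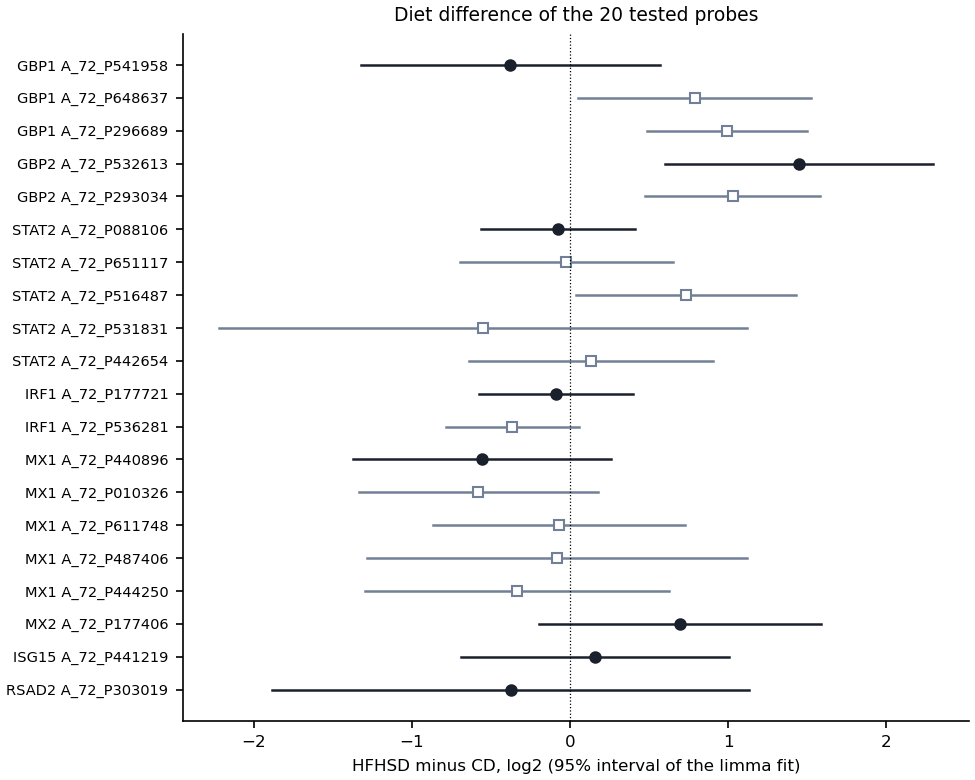
HFHSD minus CD difference (log2, x axis) of each of the 20 tested probes, with the 95% interval of the limma fit. Filled circles are the brightest probe of a gene and open squares its other probes. The intervals of both GBP2 probes, of 2 GBP1 probes and of 1 STAT2 probe lie above 0 before adjustment, and those of the IRF1, MX1, MX2, ISG15 and RSAD2 probes span 0.

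Levels are given in log2 relative to the 75th percentile of each array's processed signal, which is 0 on this scale. Levels of different probes are not comparable with each other. Since whole muscle was used, a change in the number of cells that express a gene and a change in RNA per cell cannot be told apart. The tissue label was checked against muscle fibre genes: the mean level of 12 of them, among them ACTA1, CKM and MYH7, lay between 9.19 and 9.92 on the 9 arrays, far above the 75th percentile. Between 51.2% and 68.9% of the array's probes were well above background, except on CD 1 with 36.8%, so the faint probes below are least certain on that array. HFHSD 5 and HFHSD 6 shared slide 1 and were scanned on another day, HFHSD 1, HFHSD 3, HFHSD 4 and CD 1 shared slide 2, and HFHSD 2, CD 2 and CD 3 shared slide 3.

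STAT2 is a partner of IRF9 in the factor that carries the type I interferon signal into the nucleus. Its brightest probe, A_72_P088106, read 0.85, 0.58 and 0.43 on CD 1, CD 2 and CD 3, and from 0.04 to 0.86 with a median of 0.58 under HFHSD. The groups overlapped, with the lowest value on HFHSD 5. The difference was -0.07 (SE 0.22, adjusted p = 0.914). Of its 5 probes, 2 had the higher and 3 the lower mean under HFHSD, from -0.55 to 0.73. The probe at 0.73 (A_72_P516487, SE 0.31, adjusted p = 0.275) was the only STAT2 probe with an unadjusted p under 0.05. It read -3.98, -3.36 and -2.67 in CD and from -3.01 to -2.02 under HFHSD, so 1 CD array lay within the HFHSD range. It was well above background on 2 of 3 CD arrays. The STAT2 probes did not vary as one: over the 9 arrays, the brightest had r = 0.77 with A_72_P651117, 0.62 with A_72_P442654, -0.21 with A_72_P516487 and -0.79 with A_72_P531831, as a description of arrays that share slides.

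IRF1 is a transcription factor that interferon-gamma induces and that turns on guanylate-binding protein and antigen presentation genes. Its brightest probe, A_72_P177721, read -1.12, -1.14 and -0.997 in CD and from -1.68 to -0.77 with a median of -1.13 under HFHSD. The HFHSD arrays spread to both sides of the CD arrays, and the difference was -0.09 (SE 0.22, 95% interval -0.58 to 0.40, adjusted p = 0.895). The other probe, A_72_P536281, read -1.02, -1.42 and -0.97 in CD and from -1.74 to -1.28 under HFHSD. Of the 6 HFHSD arrays, 4 lay below every CD array for this probe, and the difference was -0.36 (SE 0.19, adjusted p = 0.384). Both IRF1 probes were well above background on all 9 arrays.

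GBP2, a guanylate-binding protein that helps to break open the membranes around intracellular microbes, had the highest diet difference of the 8 genes, and it did not pass the test. The brightest GBP2 probe, A_72_P532613, read -3.56, -1.62 and -2.40 on CD 1, CD 2 and CD 3. Under HFHSD it read from -1.43 on HFHSD 1 to -0.63 on HFHSD 2, with a median of -1.13. Every HFHSD array was above every CD array, but the CD arrays were 3 times as widely spread (SD 0.97, n = 3, against 0.32, n = 6), and CD 1 was not well above background. As processed signal before scaling, the probe gave 11.4, 72.6 and 39.0 in CD and between 63.6 and 174 under HFHSD, where the groups overlapped. The difference after scaling was 1.45 (2.73-fold, SE 0.38, 95% interval 0.60 to 2.30, adjusted p = 0.092). Without CD 1 it was 0.93 (adjusted p = 0.228). Within slide 2 it was 2.24 and within slide 3 it was 1.38, each against 1 or 2 CD arrays.

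The second GBP2 probe, A_72_P293034, followed the first. It read -2.75, -2.07 and -2.65 in CD and from -1.83 to -1.06 with a median of -1.53 under HFHSD. The groups again did not overlap, with HFHSD 1 lowest and HFHSD 6 highest among the HFHSD arrays. The difference was 1.03 (2.04-fold, SE 0.25, adjusted p = 0.076), and it was 1.04 within slide 2 and 1.28 within slide 3. Over the 9 arrays both GBP2 probes had r = 0.93, and 0.79 when each array was taken as its deviation from its diet mean. On the same arrays the mean level of 7 adipocyte markers ran from -0.21 to -0.13 in CD and from 0.13 to 2.10 under HFHSD. That of 8 T and NK cell markers ran from -2.70 to -2.09 in CD and from -2.33 to -1.82 under HFHSD. The mean of 11 macrophage and monocyte markers differed by -0.30 (HFHSD minus CD), and that of 6 endothelial markers by 0.02. PLIN1, LEP and CIDEC of the adipocyte markers passed the filter only with HFHSD arrays, which favours a higher mean there. The same held for CD3E, CD3G, CD247, NKG7, KLRK1 and LCK of the T and NK cell markers. The part of cell make-up in the GBP2 difference was not tested.

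How far GBP2 stood from CD depended on the background correction, the scaling after it and the handling of slide. With slide as a random block, both GBP2 probes passed the test, at 1.66 (adjusted p = 0.0347) and 1.10 (adjusted p = 0.0377). Neither did when slide entered as a fixed block, at 1.84 (adjusted p = 0.0617) and 1.15 (adjusted p = 0.0798). With array weights only the second did, at 0.97 (adjusted p = 0.0468). Of all tested probes, 2.42% passed with slide as a random block and 4.32% with array weights, against 1.23% without either. With normexp background correction, which adds an offset that compresses faint probes, followed by the same scaling, the differences were 0.16 (adjusted p = 0.752) and 0.15 (adjusted p = 0.766). With normexp and quantile normalization they were 0.57 (adjusted p = 0.0952) and 0.40 (adjusted p = 0.0946). Both differences stayed above 0 in each alternative in which the probes were tested. Neither GBP2 probe was among those tested when a probe had to be well above background on all 9 arrays.

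**Figure D2:**
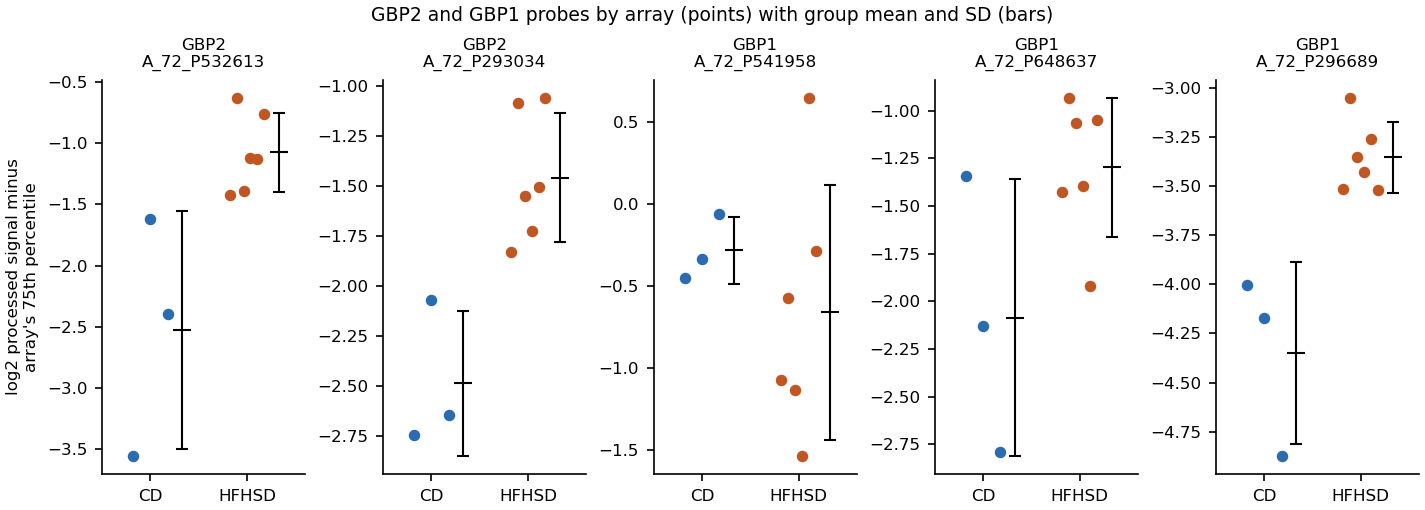
Level of each GBP2 and GBP1 probe (y axis, log2 relative to the 75th percentile of the array, own scale per panel) on the 3 CD and 6 HFHSD arrays. Points are arrays and bars are the group mean with its SD. Both GBP2 probes and GBP1 A_72_P296689 separate the diets, and GBP1 A_72_P541958 does not.

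GBP1, a related guanylate-binding protein whose gene lies next to GBP2 in the RefSeq table, had 3 probes that did not point one way. The brightest, A_72_P541958, read -0.45, -0.34 and -0.06 in CD and from -1.54 on HFHSD 4 to 0.65 on HFHSD 5 with a median of -0.82 under HFHSD. The HFHSD arrays thus reached both above and below the CD arrays, and the difference was -0.38 (SE 0.42, 95% interval -1.32 to 0.57, adjusted p = 0.740). Without HFHSD 5 and HFHSD 6 it was -0.80 (adjusted p = 0.145).

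The second GBP1 probe, A_72_P648637, read -1.34, -2.13 and -2.79 in CD and from -1.92 to -0.93 with a median of -1.23 under HFHSD. CD 1 lay within the HFHSD range, and the difference was 0.79 (SE 0.33, adjusted p = 0.268). The faintest, A_72_P296689, read -4.004, -4.17 and -4.87 in CD and from -3.52 to -3.05 with a median of -3.39 under HFHSD. Its groups did not overlap, but it was well above background on only 1 of 3 CD arrays against 5 of 6 HFHSD arrays. Its difference was 0.996 (1.99-fold, SE 0.23, adjusted p = 0.065). That probe passed the test under quantile normalization (1.46, adjusted p = 0.0487), under scaling to probes detected on all arrays (1.08, adjusted p = 0.0462) and with array weights (1.09, adjusted p = 0.0304), and it turned to -0.27 (adjusted p = 0.689) under normexp with the same scaling. The 2 fainter GBP1 probes had r = 0.81 with each other over the 9 arrays, whereas the brightest had r = -0.49 and -0.24 with them. The mean of the 3 GBP1 probes differed by 0.47 (adjusted p = 0.340), so the direction for GBP1 turned on the choice of probe.

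Whether GBP2 and GBP1 differed in their diet difference was tested within arrays, as the brightest GBP2 probe minus the brightest GBP1 probe. This contrast read -3.10, -1.29 and -2.33 in CD and from -1.78 to 0.41 under HFHSD. Of the 6 HFHSD arrays, 5 lay above every CD array, and HFHSD 5 was the exception. The HFHSD minus CD difference of the contrast was 1.82 (exact two-sided permutation p = 0.0238 over 84 splits, of which the smallest possible p is 0.0119). These splits exchange arrays across slides and so take no account of slide. Nor do they allow for how the contrast was chosen. The genes were picked with earlier results of these data known. Both GBP2 probes passed the filter only with the HFHSD arrays, where they read higher. Of the 3 GBP1 probes, the brightest is the 1 with the lower mean under HFHSD. The p is thus a description and no support for a difference between the genes. Within slide 2 the contrast differed by 3.04 and within slide 3 by 1.76, and the 12 splits that keep each slide's groups could give no p below 0.0833. With the second GBP2 probe it was 1.41 (exact permutation p = 0.0238). Set against the second GBP1 probe, the GBP2 probes gave 0.66 (exact permutation p = 0.393) and 0.24 (exact permutation p = 0.595), and against the faintest GBP1 probe 0.45 (exact permutation p = 0.440) and 0.03 (exact permutation p = 0.905). Among these probe pairs, the contrast thus had a p under 0.05 only against the brightest GBP1 probe. After averaging all probes per gene, the contrast was 0.77 (exact permutation p = 0.0238). That average includes the brightest GBP1 probe, and its p is likewise a description. For the brightest probes, the contrast under normexp with the same scaling was 0.44 (exact permutation p = 0.405). Under normexp with quantile normalization it was 0.82 (exact permutation p = 0.0476), and without CD 1 it was 1.39 (exact permutation p = 0.0714). Without HFHSD 1, HFHSD 3 or CD 3 in turn the contrast stayed between 1.78 and 1.81, with exact permutation p = 0.0536, 0.0536 and 0.0714. Whether a probe of one gene also binds RNA of the other was not tested.

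**Figure D3:**
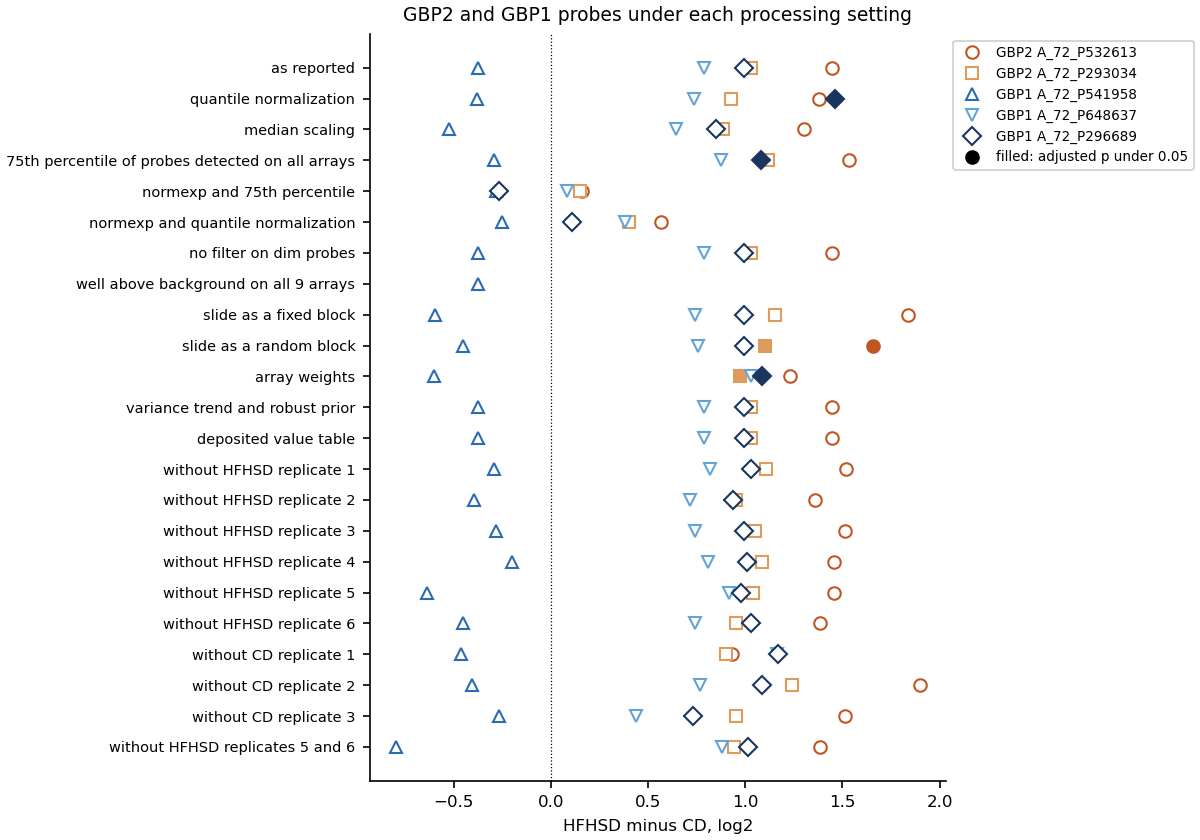
HFHSD minus CD difference (log2, x axis) of the 2 GBP2 and 3 GBP1 probes under each processing setting (y axis), with filled symbols where the adjusted p is under 0.05. The GBP2 probes lie above 0 throughout and close to 0 under normexp with the 75th percentile, and the brightest GBP1 probe lies below 0 throughout.

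MX1 is a dynamin-like GTPase that blocks incoming viral particles and is a standard marker of type I interferon. Its brightest probe, A_72_P440896, read 2.19, 1.85 and 1.44 in CD and from 0.37 on HFHSD 5 to 2.17 on HFHSD 2 with a median of 1.26 under HFHSD. Of the 6 HFHSD arrays, 3 lay below every CD array and the others within the CD range or at its lower edge. The difference was -0.56 (SE 0.37, 95% interval -1.37 to 0.26, adjusted p = 0.513). All 5 MX1 probes had the lower mean under HFHSD, from -0.58 to -0.07, and none passed the test; the sign of 3 of them, though not of the 2 brightest, turned under at least 1 other scaling. The second, A_72_P010326, had a difference of -0.58 (SE 0.34, adjusted p = 0.448). The slides did not share this direction: within slide 2 the brightest probe differed by -0.80, and the difference in slide 3 was 0.52, which holds HFHSD 2 alone against 2 CD arrays.

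MX2, the sister gene of MX1, had 1 probe, A_72_P177406. It read -3.92, -2.78 and -3.56 in CD and from -3.45 to -1.80 with a median of -2.91 under HFHSD. The groups overlapped through CD 2, and the difference was 0.70 (SE 0.40, 95% interval -0.19 to 1.59, adjusted p = 0.437). The probe was well above background on 5 of 6 HFHSD and 2 of 3 CD arrays, and under normexp with the same scaling the difference was -0.26. Within slides 2 and 3 the MX2 difference was 0.72 and 1.37.

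ISG15, a ubiquitin-like protein that is attached to other proteins during the interferon response, had 1 probe, A_72_P441219, well above background on all 9 arrays. It read 2.46, 1.71 and 1.11 in CD and from 1.23 to 2.78 with a median of 1.82 under HFHSD. The groups overlapped over nearly the whole range, with the highest value on HFHSD 2 and the next on CD 1. The difference was 0.16 (SE 0.38, 95% interval -0.69 to 1.004, adjusted p = 0.892), and it was -0.52 within slide 2 and 1.36 within slide 3.

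RSAD2 encodes viperin, which halts viral RNA synthesis. Its probe A_72_P303019 read -2.39, -2.33 and -4.11 in CD and from -5.08 on HFHSD 3 to -1.55 on HFHSD 2 with a median of -3.21 under HFHSD. The CD arrays lay inside the HFHSD range, and the difference was -0.38 (SE 0.68, 95% interval -1.88 to 1.13, adjusted p = 0.848). It was well above background on 1 of 3 CD arrays. The other RSAD2 probe, A_72_P443124, was well above background on 0 of 9 arrays and was not tested.

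**Figure D4:**
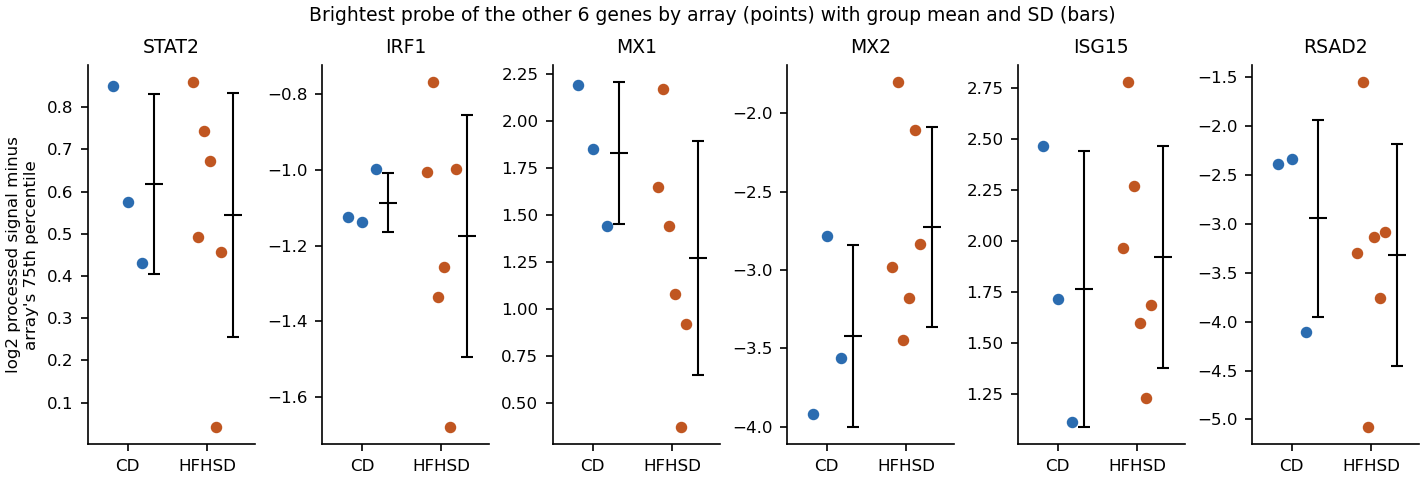
Level of the brightest probe of STAT2, IRF1, MX1, MX2, ISG15 and RSAD2 (y axis, log2 relative to the 75th percentile of the array, own scale per panel) on the 3 CD and 6 HFHSD arrays. Points are arrays and bars are the group mean with its SD. The diets overlap in all 6 panels.

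Some animals were often at the top or the bottom of these genes' ranges. HFHSD 2 had the highest value of the 9 arrays on 9 of the 20 probes and for 5 of the 8 genes by their brightest probe: IRF1, GBP2, MX2, ISG15 and RSAD2. It had the lowest value on 0 probes. HFHSD 5 had the lowest value on 6 probes, among them the brightest probes of STAT2, IRF1 and MX1. It had the highest value for the brightest GBP1 probe and for another MX1 probe, A_72_P611748. The spread around the diet means had a median SD of 0.59 over the 8 genes, against 0.39 over 2613 named genes. RSAD2 had the highest, at 1.10, and STAT2 the lowest, at 0.27. The genes compared were not matched for brightness. The RSAD2, MX2 and GBP2 probes were faint and not well above background on every array, and the SD was 0.62 for MX2 and 0.59 for GBP2. The brightest probes of the other genes were well above background on all 9 arrays. Their SD was 0.67 for GBP1, 0.59 for ISG15, 0.56 for MX1, and 0.27 for both IRF1 and STAT2. The part of noise near background in the spread was not tested. By their brightest probes, MX1 and ISG15 had r = 0.73 over the 9 arrays, and 0.91 of the deviations from the diet means. Of these deviations, IRF1 and MX1 had r = 0.70 and GBP2 and MX2 0.68. Other pairs ran the opposite way, with r = -0.88 for GBP1 and STAT2 and -0.64 for STAT2 and MX2. The pairs named were picked from all pairs of the 8 genes. The MX1 probes themselves did not vary as one. By the same measure, the brightest had r = 0.82 with A_72_P010326, 0.39 with A_72_P444250, 0.12 with A_72_P487406 and -0.23 with A_72_P611748. The brightest probes of MX1 and GBP2 did not move together (r = -0.10). These correlations describe arrays that share slides, and no test was made of them.

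Among the named genes whose profiles over the 9 arrays were most like that of GBP2, of 2605 compared, were CDC42EP3 (r = 0.93), TMEM173 (0.92) and DMP1 (0.90). Of the deviations from the diet means alone, r was 0.89, 0.78 and 0.73. DMP1, a bone matrix protein, passed the test between the diets, with a difference of 1.37 (SE 0.22, adjusted p = 0.0255). For the brightest MX1 probe the most like were ITM2A (r = 0.93), DHRS7 (0.92), PLP2 (0.91), CATSPER2 (0.91) and SELENOM (0.90). All had a lower mean under HFHSD and none passed the test. The highest of 2605 correlations over 9 arrays are high by selection, and they are given as a description.

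The rest of the interferon pathway was read through 6 lists of genes, each gene by its brightest probe, and 0 genes of any list were called in either direction (0.995% of all named genes were). The diets were fully separated on 10.9% of all tested probes. In the lists this held for 1 of 13 receptor and signalling genes and 0 of 4 interferon genes. It also held for 1 of 3 in the regulatory factor list, 1 of 10 sensors, 1 of 14 other antiviral and 2 of 14 other interferon-gamma induced genes. The separations named below are a description and no result about these genes. The receptor and signalling list had 13 tested genes, of which 9 had the higher and 4 the lower mean under HFHSD, with a median of 0.03 against -0.08 over all named genes. IFNGR2, the signalling chain of the interferon-gamma receptor, read 2.28, 1.80 and 1.93 in CD and from 0.82 to 1.46 with a median of 1.31 under HFHSD. Every HFHSD array was below every CD array, and the difference was -0.80 (SE 0.22, adjusted p = 0.101). The kinase JAK2 differed by 0.55 (SE 0.21, adjusted p = 0.230), and SOCS3, an inhibitor of the pathway, by -0.59 (SE 0.26, adjusted p = 0.296). SOCS3 was well above background on 3 of 6 HFHSD and 2 of 3 CD arrays.

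Of the interferon genes themselves, 11 of 36 listed had a probe and 4 were tested, 2 with the higher and 2 with the lower mean under HFHSD and a median of -0.02. IFNG, which encodes interferon-gamma, was well above background on 2 of 6 HFHSD and 1 of 3 CD arrays and differed by -0.49 (SE 0.40, adjusted p = 0.623). IFN-DELTA-1 and IFN-DELTA-6, type I interferon genes of the pig, differed by 0.31 (adjusted p = 0.708) and 0.24 (adjusted p = 0.786). IFN-DELTA-1 was well above background on 4 of 6 HFHSD and 1 of 3 CD arrays, and IFN-DELTA-6 on 6 of 6 and 2 of 3. A list of other interferon regulatory factors and their binding proteins had 3 tested genes, with a median of -0.36. IRF2BPL, a relative of the IRF2-binding proteins and no interferon regulatory factor itself, differed by -0.54 (adjusted p = 0.329). Of the regulatory factors, IRF3 differed by -0.36 (adjusted p = 0.385), with every HFHSD array below every CD array, and IRF7 by 0.05 (adjusted p = 0.945). Under normexp with the same scaling, which lowers the median of all tested probes by 0.15, IRF3 stood at 0.0041.

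The list of nucleic acid sensors upstream of interferon had 10 tested genes, 4 with the higher and 6 with the lower mean under HFHSD and a median of -0.01. TMEM173, which encodes the DNA-sensing adaptor STING, read -3.53, -2.66 and -2.70 in CD and from -2.52 to -1.82 under HFHSD. The groups did not overlap, and the difference was 0.81 (SE 0.26, adjusted p = 0.148), which was -0.08 under normexp with the same scaling. The TMEM173 probe was well above background on 6 of 6 HFHSD and 2 of 3 CD arrays. MAVS, the adaptor of the RNA sensors, differed by 0.42 (adjusted p = 0.498), and IFIH1, one of those sensors, by -0.32 (adjusted p = 0.639).

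Among 14 other antiviral genes, 7 had the higher and 7 the lower mean under HFHSD, with a median of 0.01. IFRD1, a transcriptional co-regulator named for its interferon response, read 1.49, 1.63 and 1.497 in CD and from 1.88 to 2.32 with a median of 2.19 under HFHSD. Every HFHSD array was above every CD array, and the difference was 0.63 (SE 0.17, adjusted p = 0.095). TNFSF10, the death ligand TRAIL, differed by 0.37 (adjusted p = 0.459), and OASL by 0.72 (SE 0.55, adjusted p = 0.587). OASL was well above background on 3 of 6 HFHSD and 1 of 3 CD arrays, and its difference was 0.32 without HFHSD 4. OAS2, IFIT1 and IFIT3, commonly used as interferon signature genes beside MX1, differed by -0.26, -0.30 and -0.06 (adjusted p = 0.801, 0.757 and 0.953). They were chosen after their values were seen.

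The other interferon-gamma induced genes held the widest differences of the 6 lists. Of 14 tested genes 9 had the higher and 5 the lower mean under HFHSD, with a median of 0.13. PSMB8, a catalytic subunit of the immunoproteasome that makes peptides for antigen presentation, read -0.01, -0.08 and 0.03 in CD and from 0.32 to 1.14 under HFHSD. Its groups did not overlap, the difference was 0.90 (SE 0.21, adjusted p = 0.071), and another of its 3 tested probes was called. PSMB10, a further catalytic subunit of the same particle, read 4.34, 4.22 and 3.82 in CD and from 2.67 to 3.56 under HFHSD, with a difference of -1.09 (SE 0.26, adjusted p = 0.076). PSMB9, the remaining one, differed by 0.03 (adjusted p = 0.964), and its naming followed a look at its value. The chemokine CXCL9 read -4.27, -4.33 and -5.96 in CD and from -4.52 to -1.22 under HFHSD, and differed by 1.80 (SE 0.67, adjusted p = 0.212). It was well above background on 1 of 3 CD arrays.

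**Figure D5:**
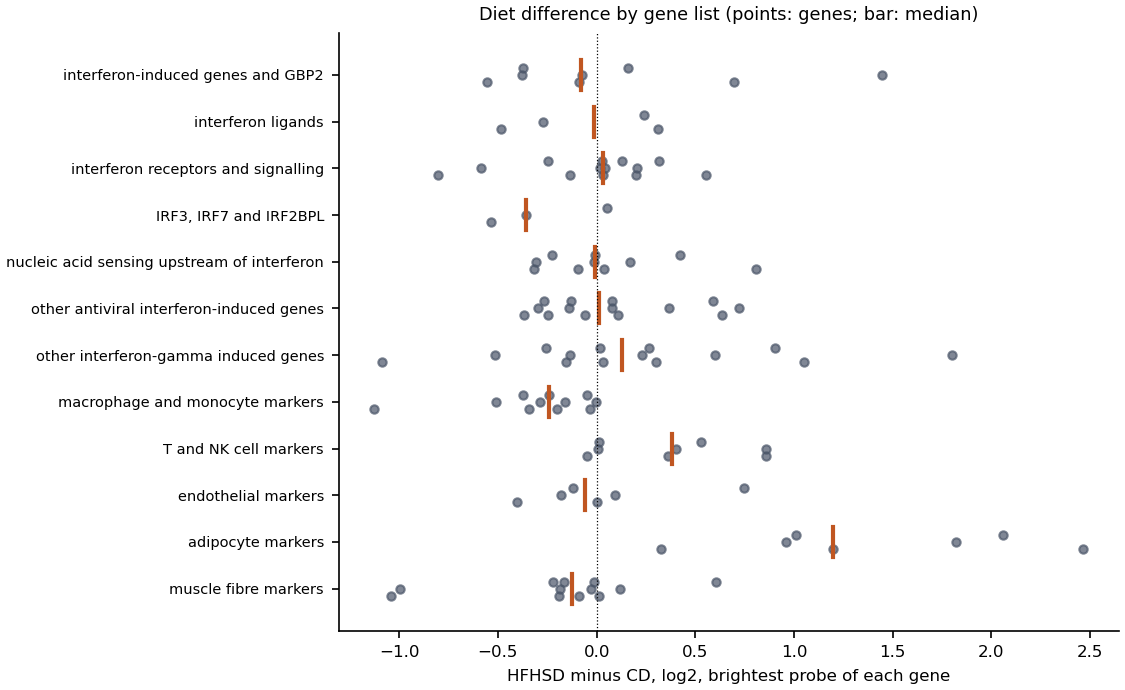
HFHSD minus CD difference (log2, x axis) of each tested gene by its brightest probe, for the interferon-induced genes and GBP2, for 6 interferon pathway lists and for 5 lists of cell type markers (y axis). Points are genes and the bar is the list's median. GBP2 is the highest point of its row at 1.45, the pathway lists scatter around 0, and 7 of 7 adipocyte markers lie above 0.

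Markers of other cells that a muscle sample can hold were read on the same arrays. Of 8 tested T and NK cell markers 7 had the higher mean under HFHSD, with a median of 0.38. Of these, CD3E and LCK differed by only 0.01 and 0.0065. The T cell receptor chain CD3G was well above background on 0 of 3 CD and 3 of 6 HFHSD arrays. CD3E, CD247, NKG7, KLRK1 and LCK were so on 2 of 3 CD arrays. All of these passed the filter only with HFHSD arrays, which favours a higher mean there, so the count is no result about T and NK cells. Of 11 tested macrophage and monocyte markers 0 had the higher and 11 the lower mean under HFHSD. Their median was -0.24, against -0.08 over all named genes, and they ran from -1.13 (CD163) to -0.0057 (LYZ). CD14 and TYROBP differed by only -0.04 and -0.05. None of the 11 had an unadjusted p under 0.05 in the limma fit or separated the diets, so the count is no result about these cells. The mean level of the 11 markers ran from 0.12 to 0.80 in CD and from -0.42 to 0.92 under HFHSD.

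Of 7 adipocyte markers 7 had the higher mean under HFHSD, with a median of 1.197. PLIN1, the coat protein of fat droplets, was well above background on 0 of 3 CD and 5 of 6 HFHSD arrays. LEP and CIDEC were so on 2 of 3 CD arrays. PLIN1, LEP and CIDEC thus passed the filter only with HFHSD arrays, which favours a higher mean there. The mean adipocyte level did not overlap between the diets. On HFHSD 1 to HFHSD 6 it read 2.10, 0.83, 1.66, 0.13, 1.13 and 1.596, and the brightest GBP2 probe read -1.43, -0.63, -1.39, -1.12, -1.13 and -0.76 on the same arrays. Of 6 endothelial markers 3 had the higher and 3 the lower mean under HFHSD. No marker gene in these lists was called.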

How the data were processed

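Per the labels, total RNA of longissimus dorsi was labelled with Cy3 and put on 9 single-colour Agilent arrays. The deposited scanner files hold linear intensity values, extracted by the authors with Agilent Feature Extraction 10.7.3.1, per the file headers. The processed signal is background-subtracted and not scaled between arrays, and the deposited table of the series holds the same values. Control spots and outlier spots were left out, spots of a probe were averaged as log2, and each array's 75th percentile was subtracted. Of 43603 probes, 22 had no usable spot on some array, and 27922 were well above background on at least 3 arrays and were tested. HFHSD was tested against CD in limma 3.58.1 (R 4.3.3, lmFit and eBayes, no covariates), with Benjamini-Hochberg adjustment over all tested probes and a threshold of 0.05. The script was checked on simulated data.

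Probes were named through a RefSeq table of pig genes (Sscrofa11.1), used for names and gene order. The array files name no genome build, so no coordinates or sequences are given. All probes of the 9 genes are reported. Of each pathway list, the genes called and otherwise the 3 with the smallest p are named, and others are marked. The 5 named genes most like GBP2 and MX1 over the arrays were sought by Pearson's r, and some of them are not reported here. The genes and lists were chosen with earlier results of these data known. Replicate numbers follow accession order and only name arrays. Each array is 1 animal, and the number of arrays limits the precision. Alternatives were other scalings, normexp background correction (offset 50) on the median spot signal, since a mean spot signal was not used here, other filters on dim probes, slide as a block, array weights, a robust prior with a variance trend, the mean of a gene's probes and leaving out arrays.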

Additional observations from a re-analysis of the deposited data

How the results depend on the processing

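The tested probes of 8 genes were refitted under each alternative, with probes of a gene numbered here by brightness. The count of all called probes was 344 of 27922 (1.23%) as reported. It was 387 (1.39%) with quantile normalization, 488 (1.75%) with the 75th percentile of probes detected on all arrays and 127 (0.455%) with median scaling. Normexp gave 88 (0.315%) with the 75th percentile and 856 (3.07%) with quantile normalization. Without the filter on dim probes it was 66 of 43581 (0.151%). With probes well above background on all 9 arrays it was 736 of 15847 (4.64%). Slide gave 84 (0.301%) as a fixed block and 677 (2.42%) as a random block. Array weights gave 1205 (4.32%), and a variance trend and robust prior gave 612 (2.19%). Without HFHSD 5 and HFHSD 6 it was 128 (0.502%), and when 1 array was left out it was 21 to 359. Of the 20 probes of the interferon-induced genes, 0 were called as reported, 1 (GBP1) with quantile normalization, 1 (the same GBP1 probe) with the 75th percentile of probes detected on all arrays, 2 (GBP2, at 1.66 and 1.10) with slide as a random block and 2 (GBP1, and GBP2 at 0.97) with array weights. Of the pathway list genes, 0 were called as reported, 1 (PSMB8) with the percentile of detected probes, 3 with normexp and quantile normalization (IFRD1, PSMB8, PSMB10), 3 with the filter on all 9 arrays (IFRD1, PSMB8, PSMB10), 2 with slide as a random block (IFNGR2, PSMB8), 3 with array weights (IFNGR2, IFRD1, PSMB8), 2 with the variance trend (PSMB8, PSMB10), 1 (PSMB8) without HFHSD 5 and HFHSD 6, and 0 to 1 when 1 array was left out. The called counts of the 20 probes and of the list genes stand beside the share of all tested probes called in the same setting. They are no result about these genes. Median scaling moved the median over all tested probes by -0.15, and so did normexp with the 75th percentile, so small differences under these settings are to be read against that shift. The following changed sign and passed the test in neither setting, apart from the GBP2 minus GBP1 contrast. That contrast kept its sign. Its exact permutation p of 0.0238 as reported is a description and no support for a difference between the genes. With the percentile of detected probes, STAT2 gave 0.012 (the brightest) and 0.064 (the second), and MX1 0.017 (the third) and 0.007 (the fourth). With normexp and the 75th percentile, GBP1 gave -0.27 (the third), STAT2 0.060 (the brightest), -0.19 (the third) and -0.35 (the fifth), MX1 0.036 (the third), MX2 -0.26, IFN-DELTA-1 -0.33, IFN-DELTA-6 -0.21, TMEM173 -0.078, OASL -0.20, IRF3 0.0041 and IRF7 -0.018, and the GBP2 minus GBP1 contrast weakened to 0.44. With normexp and quantile normalization, IRF1 gave 0.023 (the brightest) and MX1 0.14 (the fourth). Quantile normalization gave 0.14 for STAT2 (the fourth) and 0.022 for MX1 (the fifth), and median scaling gave -0.013 for STAT2 (the fifth) and -0.096 for IRF7. With slide as a fixed block, STAT2 gave 0.28 (the second), IRF1 0.10, MX1 0.33 (the fourth), RSAD2 0.018, IFIH1 0.059 and IRF7 -0.14. With slide as a random block, STAT2 gave 0.11 (the second), IRF1 0.0027, MX1 0.11 (the fourth) and IRF7 -0.038. Array weights gave 0.027 and 0.081 for STAT2 (the brightest and the second) and 0.089 for MX1 (the fourth). Without HFHSD 5 and HFHSD 6, STAT2 gave 0.073 and 0.25 (the brightest and the second), MX1 0.16 (the fourth), IFN-DELTA-6 -0.033 and IRF7 -0.061. The mean of the gene's probes gave 0.47 for GBP1 and 0.045 for STAT2. When 1 array was left out, STAT2 ranged from -0.17 to 0.042 (the brightest), -0.13 to 0.16 (the second) and -0.023 to 0.34 (the fifth), IRF1 from -0.17 to 0.013, MX1 from -0.22 to 0.079 (the third) and -0.42 to 0.13 (the fourth), ISG15 from -0.17 to 0.51, IRF7 from -0.044 to 0.22, and the GBP2 minus GBP1 contrast from 1.39 to 2.30. The causes of these changes were not tested. No paired analysis was possible because the replicate numbers only name arrays. Faint probes are limited by signal over background, above all on CD 1. Normexp on the mean spot signal was not run, and the normexp values use the median spot signal and were chosen after seeing the data, as was leaving out HFHSD 5 and HFHSD 6 together. The deposited table gave the same values.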
